A study of Mus musculus with 14 samples.

Results

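The 100 array probes described here differed most, on both of 2 slides, between standard mouse embryonic stem (ES) cells and cells taken 10 passages after retinoic acid was removed. They were taken from 42006 probes on an Agilent 2-colour array, of which 22858 were well above background in Cy3 on the 4 arrays the choice used. On each of 2 slides, 1 passage 10 array was set against 1 array of standard cells, as a difference of log2 ratios centred on the array median. Of the 22858 probes, 15462 had both differences of 1 sign, and the 100 with the largest smaller difference were kept. At passage 10, 54 of them were higher (called raised below) and 46 were lower (lowered). The direction and size at passage 10 chose these probes and are therefore given as a description, without a test.

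Each array carried Cy3-labelled RNA of 1 sample beside a common Cy5-labelled reference, which pooled RNA of 11 cultured cell lines and was mixed 2:1 with RNA of 129ES cells. There were 14 arrays, 2 in each of 7 groups, all of male ES cells of the 129/Sv or, on day 7, the 129SvEv-Tac strain. Standard day 3 was the subline MC1-ZE3 in standard culture. Passage 10 was MC1-ZE3 that had received RA (retinoic acid) for 7 days, was then carried for 10 passages without it, and was collected on day 3 of a culture. Control day 3 was MC1-ZE3 beside the treated cells, RA 48 h was MC1-ZE3 after 48 h in 50 nM all-trans RA, and LY294002 48 h was MC1-ZE3 after 48 h in the inhibitor LY294002, labelled 10 nM, where the unit may be wrong. Day 4 colonies were picked from MC1-ZE16 in 50 nM RA, and day 7 colonies from MC1 in 50 nM RA. All groups were grown with LIF. The colonies were pooled for RNA and are called pluripotent by the submitters. They came from other lines than the control, so line and treatment cannot be told apart in them. The labels do not say whether the 2 arrays of each group hold separate cultures. A p-value here therefore reflects the spread between such arrays, and that spread may be technical.

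Retinoic acid, a derivative of vitamin A, binds nuclear receptors that switch on genes with matching sites, and it drives ES cells to differentiate. LIF acts through the JAK and STAT3 pathway and helps to hold mouse ES cells in the undifferentiated state. LY294002 blocks phosphoinositide 3-kinase (PI3K), a lipid kinase that signals to AKT and supports growth and self-renewal of mouse ES cells.

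The share of probes well above background in Cy3 was 56.1% to 75.1% per array. Standard day 3 and passage 10 were at the low end (56.1% to 58.5%), with 1 array of each on slide 2 and 1 of each on slide 3. Both day 4 colony arrays were also low, at 58.5%. Control day 3 (73.1% and 74.8%) and RA 48 h (68.6% and 75.1%) shared slide 5. LY294002, day 4 colonies and day 7 colonies were each alone on a slide, so slide and group cannot be told apart for them. The part of brightness in the results was not tested. The number of arrays limits the precision. The files give each probe an identifier and a sequence of 60 bases, and none of the members' whole sequences was found in the RefSeq promoter windows or miRNA hairpins (build GRCm38.p6), so no gene is named. The labelled cell type could not be checked against marker genes for the same reason.

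Among the members, 4 pairs of probes overlap in sequence. They are shown because both probes of a pair match neighbouring stretches, so that their values can be set beside each other. Capitals mark the bases that the end of the first probe shares with the start of the second, 33, 31, 19 and 15 bases in turn. The sequences are from the deposited scanner files, and their chromosome is not given there.
Z00055328-1: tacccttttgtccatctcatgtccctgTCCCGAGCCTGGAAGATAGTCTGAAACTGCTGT
Z00000336-1: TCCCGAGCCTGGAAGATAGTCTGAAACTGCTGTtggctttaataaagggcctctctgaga
Z00023126-1: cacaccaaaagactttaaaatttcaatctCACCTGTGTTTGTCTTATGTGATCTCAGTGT
Z00074881-1: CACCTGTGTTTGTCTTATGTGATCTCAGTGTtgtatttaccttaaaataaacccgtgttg
Z00075380-1: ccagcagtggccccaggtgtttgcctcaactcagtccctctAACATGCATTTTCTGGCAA
Z00053992-1: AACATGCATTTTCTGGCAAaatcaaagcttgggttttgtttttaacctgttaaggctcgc
Z00075126-1: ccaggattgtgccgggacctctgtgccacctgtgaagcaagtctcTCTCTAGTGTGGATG
Z00025550-1: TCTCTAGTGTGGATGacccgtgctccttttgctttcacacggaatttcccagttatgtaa

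Both probes of each pair lay on the same side: 3 pairs were lowered and the pair Z00023126-1 and Z00074881-1 was raised. Over the 10 arrays that the choice did not use, the levels within a pair correlated at r = 0.987, 0.97, 0.999 and 0.988, in the order shown. These are correlations of 10 arrays that fall into groups, given as a description. A further pair of overlaps reached probes that are no members. Z00053024-1, lowered, shared 48 bases with Z00075320-1, whose 2 differences on the scale of the rule were -0.78 and -1.31, so that it fell short by the first. Z00061371-1, lowered, shared 45 bases with Z00031278-1, at -1.60 and -2.26, which was not well above background on all 4 arrays.

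A second set of sequences carries the strongest results and is printed without capitals. The first 4 moved together on every array, the next 3 had the largest falls with LY294002, on day 4 and on day 7, and the last 3 had the largest rise with RA and the 2 largest differences among raised members at passage 10.
Z00060948-1: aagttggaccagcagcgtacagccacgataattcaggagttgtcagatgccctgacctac
Z00060935-1: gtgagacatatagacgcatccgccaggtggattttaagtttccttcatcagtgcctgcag
Z00034806-1: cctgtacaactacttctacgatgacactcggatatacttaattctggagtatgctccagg
Z00060065-1: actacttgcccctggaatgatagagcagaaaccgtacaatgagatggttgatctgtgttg
Z00023804-1: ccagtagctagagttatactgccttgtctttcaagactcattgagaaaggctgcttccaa
Z00064853-1: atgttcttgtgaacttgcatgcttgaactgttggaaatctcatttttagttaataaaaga
Z00014876-1: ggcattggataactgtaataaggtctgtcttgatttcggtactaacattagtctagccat
Z00004700-1: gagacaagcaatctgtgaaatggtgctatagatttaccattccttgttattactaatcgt
Z00016634-1: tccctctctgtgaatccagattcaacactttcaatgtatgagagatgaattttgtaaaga
Z00030719-1: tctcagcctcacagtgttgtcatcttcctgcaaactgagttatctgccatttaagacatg

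On the scale of the rule, the lowered probes had a median difference of -1.15 on slide 2 and -1.18 on slide 3, and the raised probes 1.23 and 1.16. In 60 of the 100 members the difference was at least 2-fold on both slides. The differences on the 2 slides lay within 0.5 of each other in all members but 3. Those 3 were raised: Z00031374-1 (1.30 and 3.29), Z00028401-1 (2.53 and 1.36) and Z00036536-1 (1.24 and 1.76). The last members inside the limit were Z00026746-1 (-0.98 and -0.89), Z00008117-1 (0.88 and 0.98) and Z00024628-1 (-0.88 and -0.98). The first outside were Z00072586-1 (0.88 and 1.35), Z00076777-1 (0.89 and 0.87) and Z00074314-1 (0.87 and 0.98), so the limit cuts through a continuous range. Of the 22858 bright probes, 1 had differences this large on both slides with opposite signs.

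All further levels are log2 ratios of sample over reference after background correction and loess, where 0 means as bright as the reference. A constant of 50 was added to each signal, which pulls dim probes toward no change. On this scale the raised members were higher at passage 10 by a median log2 of 0.70 and the lowered members lower, with a median of -0.87. For 96 of the 100 members the 2 passage 10 arrays and the 2 standard arrays did not overlap. The choice of members on these same arrays largely brings this about, so nothing is read from it. As background, 3.42% of 31053 tested probes passed limma's threshold between these groups in either direction, and since the rule used these arrays nothing is read from the members' share. In Cy3 alone, the channel of the sample, the medians were 0.60 and -0.86. In Cy5 alone, the channel of the reference, which should not differ between arrays, they were -0.02 and -0.01.

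The difference was carried by the sample channel in most members, with exceptions among dim raised probes. In 5 raised members, Z00028401-1, Z00031374-1, Z00025665-1, Z00065009-1 and Z00059088-1, the mean difference in Cy5 was larger than that in Cy3. They were picked out after their values were seen. In 3 members the mean Cy5 difference was over 0.3 in size: Z00031374-1 (-0.45), Z00028401-1 (-0.44) and Z00076700-1 (-0.44). In Z00028401-1 the Cy3 difference was -0.44 on slide 2 and 0.25 on slide 3, against -0.84 and -0.04 in Cy5. In Z00076700-1, one of the 10 leading raised members, it was 0.41 and 1.03 in Cy3, against -0.76 and -0.12 in Cy5. The part of the reference channel in these results was not tested. The background-subtracted Cy3 signal of the raised members had a median of 57.1 intensity units in standard cells and 101 at passage 10. That of the lowered members was 272 and 109. All members had unsaturated Cy3 spots that were not outliers on any array.

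Of the raised members, 21 of 54 were more than 4-fold below the reference in standard day 3, against 4 of 46 lowered members and 1391 of 31053 tested probes. In standard cells the raised members had a median level of -0.23, within a range from -8.88 to 1.58, and the lowered members one of 0.21, from -3.04 to 1.41. At passage 10 7 lowered members were above the reference, after 27 in standard cells. The choice of members on these same arrays largely sets this fall. The 31053 tested probes also include probes too dim for the rule, so these levels are given as a description.

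Among the lowered members, the largest difference belonged to Z00078103-1. Its level was 0.17 and 0.32 in standard cells and -1.65 and -1.50 at passage 10, a 3.53-fold difference of the mean ratios. In Z00014876-1 the level was 0.34 and 0.36 in standard cells and -1.20 and -1.21 at passage 10, or 2.94-fold lower. The 2 arrays of a group lay closely together in both, far within the distance between the groups, which the rule favoured. Z00073937-1 stood at 0.26 and 0.38 in standard cells and at -1.15 and -1.14 at passage 10. For Z00075380-1, the first probe of an overlapping pair, the values were 0.72 and 0.72 against -0.71 and -0.73. Its Cy3 signal was 6890 units in standard cells and 2470 at passage 10. Z00004700-1 went from -1.94 and -1.89 to -3.16 and -3.14, and Z00031814-1 from 0.72 and 0.79 to -0.51 and -0.64. Z00076280-1 was at -2.00 and -1.99 against -2.72 and -2.75, and Z00074092-1 at -2.38 and -2.17 against -3.00 and -2.79. The smallest loess difference of the 10 leading lowered members was that of Z00043920-1, with 0.49 and 0.54 against 0.12 and 0.11, where the Cy3 signal was only 45.0 and 31.8 units.

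Among the raised members, Z00016634-1 led on the scale of the rule with differences of 2.54 and 2.75. Its level was -6.62 and -6.32 in standard cells and -5.40 and -5.36 at passage 10, so that it stayed far below the reference while its Cy3 signal went from 35.2 to 118 units. Z00030719-1 stood at -3.75 and -3.63 against -2.54 and -2.52. Z00026289-1 had the largest fold on the loess scale among the leading raised members: it was at -3.88 and -3.97 in standard cells and at -2.00 and -2.07 at passage 10, a 3.71-fold difference. Z00070458-1 was at -8.87 and -8.88 against -7.23 and -7.17, or 3.21-fold higher. Here too the arrays of the 2 groups did not overlap, which the rule favoured. Z00024982-1 was 2.45-fold higher at passage 10, Z00076700-1 2.14-fold (with the Cy5 difference given above), Z00004514-1 1.70-fold, Z00057363-1 2.18-fold, Z00075103-1 2.48-fold and Z00025893-1 2.53-fold. All 10 leading raised members were below the reference in both groups.

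The other groups show where these probes stand outside the pair of groups that chose them. Control day 3 is a second set of untreated MC1-ZE3 cells, and 32 of the 46 lowered members were at least as high there as in standard day 3, 10 lay between standard and passage 10, and 4 lay below passage 10. Of the 54 raised members 36 were no higher in control day 3 than in standard day 3, 15 lay between and 3 were above passage 10. The 2 untreated sets were not alike: control day 3 minus standard day 3 had a median of 0.37 in the lowered and -0.12 in the raised members. In some members they lay further apart than standard day 3 and passage 10. Z00060948-1 had a mean level of 0.95 in standard day 3, 2.94 in control day 3 and -0.28 at passage 10. Z00076280-1 had -2.00, -3.52 and -2.74. These positions and levels use the arrays of the rule and are given as a description. The tests that follow compare groups whose arrays the rule did not use: RA 48 h, LY294002, day 4 and day 7 colonies, each against control day 3, and the 2 kinds of colony with each other. The first 4 share the control arrays, and their values are therefore set side by side only.

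Probes lowered at passage 10 mostly fell with the PI3K inhibitor as well. With LY294002 for 48 h, 39 of the 46 lowered members fell and 5 rose past limma's threshold (adjusted p under 0.05 over all 31053 tested probes), and 2 did not pass. Of all tested probes 28.1% fell and 24.5% rose. The median log2 change of the lowered members was -1.32, against 0.00 for all tested probes. Of the lowered members 29 fell at least 2-fold, or 63.0%, where 5.74% of all tested probes did. Among the 22858 probes bright enough for the rule, 32.3% fell, and 7.16% of the 22858 fell at least 2-fold. Counting raised members and both directions, 39 of the 100 members changed at least 2-fold, beside 7.16% of all tested probes. Slide 6 held the LY294002 arrays and no others, so treatment and slide cannot be told apart. Leaving out any 1 of the 4 arrays left 37 to 39 lowered members called as fallen. Each probe is counted separately here, also overlapping and closely alike ones, so the counts are of probes and not of transcripts.

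Z00023804-1 fell most. Its level was 3.13 and 3.23 in control day 3 and -1.39 and -1.55 with LY294002, a log2 change of -4.65 (SE 0.17, limma adjusted p = 2.7e-10), or 25.2-fold. It passed from among the probes well above the reference to below it. In standard day 3, the other untreated set, this probe stood at only 0.57 and 0.92, so the size of its fall depends on the control used. In Z00014876-1 the level was 0.62 and 0.61 in the control and -3.23 and -3.04 with the inhibitor, a log2 change of -3.75 (SE 0.098, limma adjusted p = 2.03e-11), or 13.4-fold. Z00000336-1 went from 0.22 and 0.23 to -2.96 and -2.86, or 8.76-fold lower (limma adjusted p = 6.94e-12), and its overlapping partner Z00055328-1 from 0.28 and 0.28 to -1.80 and -1.83, or 4.27-fold lower (limma adjusted p = 5.27e-11). Both probes of the pair fell, but by different amounts. The overlapping probes Z00075380-1 and Z00053992-1 fell 6.99-fold and 5.82-fold, and Z00025550-1 and Z00075126-1 fell 4.32-fold and 3.19-fold. The lowered probe with the largest difference at passage 10, Z00078103-1, did not share the fall: it was at 1.05 and 1.18 in the control and 1.27 and 1.58 with LY294002 (log2 rise of 0.31, limma adjusted p = 0.0435). Z00074822-1 rose 3.30-fold (limma adjusted p = 4.54e-06), from -0.73 and -0.81 to 1.03 and 0.88. Against standard day 3, whose arrays chose the members, 38 of the 46 lowered members were lower with LY294002, and 26 of them were below their own passage 10 level. The median difference of the 46 lowered members from standard day 3 was -0.78, smaller in size than that from control day 3. On the LY294002 arrays 42 of the 46 were well above background on both arrays, and for Z00043920-1 and Z00064570-1, which were so on neither, the fall is a bound only.

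Raised members were about evenly divided with LY294002. Of the 54, 17 rose, 16 fell and 21 did not pass, with a median log2 change of -0.07. These shares, 31.5% and 29.6%, were near the 29.5% and 32.3% of the 22858 probes bright enough for the rule. Of all tested probes 24.5% rose and 28.1% fell, so the split is not read as particular to the members. The largest rises were those of Z00036536-1, from 0.66 and 0.59 to 2.91 and 2.51 (4.23-fold, limma adjusted p = 1.14e-08), and Z00022184-1, from -0.99 and -0.63 to 0.75 and 0.72 (2.92-fold, limma adjusted p = 1.24e-07). Z00026289-1, among the leading raised members, instead fell 2.79-fold (limma adjusted p = 1.74e-08), from -3.81 and -3.71 to -5.32 and -5.17. Over the 22858 probes bright enough for the rule, the mean difference at passage 10 and the change with LY294002 correlated at r = 0.29, and at r = 0.291 without the members. The same correlation was -0.0443 for RA, 0.0885 for day 4 colonies and 0.0855 for day 7 colonies. These are correlations across probes, which are not independent replicates, and passage 10 and standard arrays enter none of the other comparisons.

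With RA for 48 h, members of both kinds rose more often than they fell. Of the lowered members 26 rose, 7 fell and 13 did not pass, and of the raised members 25 rose, 12 fell and 17 did not pass, where 22.4% of all tested probes rose and 15.9% fell. The median log2 change was 0.54 in the lowered and 0.14 in the raised members, against 0.01 over all tested probes. For raised members the excess of rises depended on the processing. In Agilent's processed log ratios 20 raised members rose and 16 fell, and 23 lowered members rose and 6 fell. In Cy3 alone 22 raised members rose and 12 fell, with a median of -0.02, and 24 lowered members rose and 7 fell. At least 2-fold rises were seen in 17 lowered and 7 raised members, or 37.0% and 13.0%, beside 2.71% of all tested probes. Counting both directions, 26 of the 100 members changed at least 2-fold, beside 3.6% of all tested probes. The RA change thus had the direction of passage 10 in 32 members and the opposite one in 38. No sample of the same culture during its 7 days of RA was analysed here, so when the differences at passage 10 began was not tested.

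Z00004700-1, lowered at passage 10, rose most at 48 h of RA. It was at -1.76 and -1.75 in control day 3 and at 0.65 and 0.83 with RA, a log2 change of 2.49 (SE 0.102, limma adjusted p = 3.23e-09), or 5.63-fold. Z00074092-1, also lowered, went from -2.14 and -2.07 to 0.27 and 0.21, or 5.09-fold higher (limma adjusted p = 4.63e-09). Both lay above all control and standard arrays with RA and below all of them at passage 10. Z00075192-1, raised at passage 10, rose 4.41-fold (limma adjusted p = 1.75e-09), from -4.44 and -4.37 to -2.34 and -2.19. Z00016634-1 rose 4.00-fold (limma adjusted p = 1.53e-05), from -7.11 and -7.13 to -5.20 and -5.04, a level close to its -5.40 and -5.36 at passage 10. The overlapping raised pair Z00023126-1 and Z00074881-1 rose 2.64-fold and 2.58-fold (limma adjusted p = 1.46e-06 and 6.65e-06). The overlapping lowered pair Z00075380-1 and Z00053992-1 also rose, 3.08-fold and 2.60-fold. Among the falls, Z00057217-1 went from 2.19 and 1.97 to 0.61 and 0.67 (2.71-fold, limma adjusted p = 2.46e-08), Z00038907-1 fell 2.02-fold (limma adjusted p = 2.52e-06) and Z00023761-1 1.97-fold (limma adjusted p = 0.000184). All 3 were raised at passage 10.

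Raised members that were more than 4-fold below the reference in standard cells moved mostly up with RA, a division of the members made after their values were seen. The median log2 change of these 21 was 0.67 and 16 (76.2%) rose, while the median of the other 33 was -0.13 and 9 rose and 11 fell. All 1391 tested probes equally far below the reference in standard cells had a median of 0.37, and 58.3% of them rose.

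In day 4 colonies the members moved in both directions. Of the lowered members 13 rose and 21 fell, and of the raised members 13 rose and 17 fell, beside 29.2% of all tested probes higher and 30.7% lower. The medians were -0.16 and -0.03. At least 2-fold changes were found in 25 of the 100 members, beside 9.64% of all tested probes. In Agilent's processed log ratios 6 raised members rose and 32 fell. When normexp log ratios were median-centred without loess, 3 rose and 12 fell. The Agilent values differ in background and dye correction as well as in scaling, and which of these moved the counts was not tested. Only 34 of the 54 raised members were well above background on both day 4 arrays. Of the 32 that were so on all arrays of the series, 13 rose and 8 fell. Large falls were found among lowered members. Z00064853-1 went from 1.30 and 1.35 in control day 3 to -3.79 and -3.65, a log2 change of -5.05 (SE 0.124, limma adjusted p = 2.26e-11), or 33.1-fold. Z00078103-1 went from 1.05 and 1.18 to -2.90 and -2.76, or 15.4-fold lower (limma adjusted p = 8.47e-11), and Z00029465-1 from 2.95 and 3.01 to -0.74 and -0.81, or 13.5-fold lower (limma adjusted p = 2.24e-07). In all 3 the day 4 arrays lay below those of every other group, passage 10 included. Z00029465-1 stood at only 0.19 and 0.50 in standard day 3, far below its control level, so the size of its fall depends on the control used. Z00074822-1 rose 7.00-fold (limma adjusted p = 4.08e-08), from -0.73 and -0.81 to 2.10 and 1.98. Z00022385-1, raised at passage 10, rose 3.67-fold (limma adjusted p = 3.39e-10), and Z00023505-1, lowered, 3.21-fold (limma adjusted p = 2.23e-09).

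In day 7 colonies 19 lowered members rose and 22 fell, and 19 raised members rose and 16 fell, beside 26.2% of all tested probes higher and 26.8% lower. The medians were -0.24 and -0.02. At least 2-fold, 9 lowered members rose and 11 fell, and 8 raised members rose and 2 fell, where 3.65% of all tested probes rose and 3.65% fell by as much (7.3% in both directions). Z00014876-1 fell most: it was at 0.62 and 0.61 in the control and at -2.48 and -2.83 in the colonies, a log2 change of -3.27 (SE 0.098, limma adjusted p = 7.68e-11), or 9.63-fold. Z00073937-1 fell 9.20-fold (limma adjusted p = 3.87e-11), from 3.33 and 3.26 to -0.02 and 0.22. That control level stood far above its standard day 3 level of 0.26 and 0.38, so this fall leads back to about the standard level. Z00057217-1 fell 6.23-fold (limma adjusted p = 5.93e-11), to -0.52 and -0.60. Z00074092-1 rose 6.74-fold (limma adjusted p = 3.96e-10), to 0.56 and 0.74, Z00023505-1 rose 4.31-fold (limma adjusted p = 3.96e-10) and Z00074822-1 4.04-fold (limma adjusted p = 1.16e-06). These 3 were lowered at passage 10. Of the leading raised members, Z00030719-1 rose 3.69-fold (limma adjusted p = 8.61e-07), from -3.96 and -3.78 to -1.66 and -2.30, and Z00024982-1 2.53-fold (limma adjusted p = 1.12e-07).

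Set directly against each other, 22 lowered members were higher and 10 lower in day 7 than in day 4 colonies, and 17 raised members were higher and 10 lower, where 27.4% of all tested probes were higher and 25.4% lower. Differences of at least 2-fold were found in 29 of the 100 members, beside 6.97% of all tested probes. In Agilent's processed log ratios 30 raised members were higher and 4 lower. The colonies came from different lines, on different slides. Z00064853-1 was 21.6-fold higher on day 7, at 0.85 and 0.57 against -3.79 and -3.65 (limma adjusted p = 5.96e-11). Z00010489-1, raised at passage 10, was 9.60-fold higher, at 1.73 and 1.53 against -1.59 and -1.67 (limma adjusted p = 1.24e-11), and Z00074092-1 was 7.40-fold higher (limma adjusted p = 3.34e-10). Z00014876-1 was 3.67-fold lower on day 7 (limma adjusted p = 9.41e-09), Z00004700-1 3.40-fold lower (limma adjusted p = 2.16e-08) and Z00060948-1 2.70-fold lower (limma adjusted p = 4.38e-08).

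The 10 leading members of each direction can be followed through the tested groups. Of the 10 leading lowered members 8 fell and 2 rose with LY294002, and 3 fell and 5 rose with RA. Of all tested probes 28.1% fell and 24.5% rose with LY294002, and 15.9% fell and 22.4% rose with RA. Z00014876-1 fell in all 4 comparisons with control day 3, by 1.82-fold with RA, 13.4-fold with LY294002, 2.63-fold on day 4 and 9.63-fold on day 7. Z00031814-1 also fell in all 4, most on day 4, where it went from 1.23 and 1.25 to -2.22 and -2.10, or 10.6-fold (limma adjusted p = 3.49e-11), against 1.26-fold, 1.54-fold and 1.60-fold with RA, LY294002 and on day 7. Z00076280-1 did the reverse of its passage 10 difference: its level was -3.59 and -3.46 in control day 3, already below its -2.72 and -2.75 at passage 10, and it rose by a log2 of 0.78 with RA and 0.32 with LY294002 (limma adjusted p = 9.13e-05 and 0.0236).

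Of the 10 leading raised members 7 rose with RA and 3 did not pass, 5 rose and 1 fell on day 4, and 6 rose and 2 fell on day 7, while with LY294002 1 rose, 3 fell and 6 did not pass. All 10 were more than 4-fold below the reference in standard cells. Of all 1391 tested probes that low, 58.3% rose and 4.1% fell with RA. On day 4 42.1% rose and 28.8% fell, on day 7 43.5% and 20.6%, and with LY294002 17.0% and 37.1%. Counts of 10 are too few to set the leading members apart from these shares. Z00004514-1 rose in all 4 comparisons with control day 3, 2.90-fold with RA, 1.48-fold with LY294002, 1.69-fold on day 4 and by a log2 of 1.20 on day 7 (limma adjusted p = 1.91e-08, 5.53e-05, 3.03e-06 and 6.86e-08). For Z00076700-1 only the rise on day 7 passed, from -4.65 and -4.64 to -3.42 and -3.27, or 2.47-fold (limma adjusted p = 4.04e-07), a level near its -3.21 and -3.17 at passage 10. Z00070458-1 changed little anywhere else: its log2 changes were 0.24 with RA, 0.26 on day 4 and 0.18 on day 7, of which that on day 4 passed (limma adjusted p = 0.039), and its level outside passage 10 stayed between -9.15 and -8.72. Z00025893-1 lay between -6.52 and -5.89 on the 12 arrays other than passage 10, where it was at -4.89 and -4.99. In both of these probes the passage 10 arrays lay above those of all other groups. The rule favoured this by choosing raised probes that were higher at passage 10 than in standard cells. How many other members or probes did the same was not counted, so it is given as a description.

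Some members were closely alike over all groups. The 4 lowered probes Z00060948-1, Z00060935-1, Z00034806-1 and Z00060065-1 were named after their values were seen. Their longest shared run of bases was 7, so they do not read overlapping sequence. Whether they read the same transcript could not be checked without gene names, so they may not be separate results. Z00060948-1 stood at 0.82 and 1.08 in standard day 3, -0.34 and -0.23 at passage 10, 2.95 and 2.94 in control day 3, 3.03 and 2.93 with RA, 0.36 and 0.30 with LY294002, 3.05 and 3.15 on day 4 and 1.59 and 1.74 on day 7. It was thus high in control, RA and day 4 arrays, intermediate on day 7, and lowest at passage 10. Over the 14 arrays the level of Z00034806-1 differed from that of Z00060065-1 by at most 0.25 and that of Z00060935-1 from Z00060065-1 by at most 0.31. With LY294002 the 4 fell 6.12-fold, 5.15-fold, 4.14-fold and 4.79-fold, in the order named, and on day 7 2.43-fold, 2.01-fold, 1.94-fold and 2.17-fold. With RA their log2 changes were 0.04, 0.03, 0.02 and 0.01, none past limma's threshold. Over the 10 arrays outside the rule, the median correlation of 2 lowered members was 0.52 over 1035 pairs of probes, and that of 2 raised members was -0.00 over 1431 pairs. The lowered members thus varied together more than the raised ones, as a description of arrays that share groups and slides. The raised members were also dimmer, with a median Cy3 signal of 57.1 units in standard cells against 272. The part of brightness in the 2 correlations was not tested.

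Base composition and motifs were also counted in the probe sequences. The median GC content was 44.2% in the raised and 45.0% in the lowered members, and 45.0% in the 22858 probes bright enough for the rule. The letters AATAAA, the usual signal for cutting and tailing a transcript, stood in 7 raised and 4 lowered probes, or 13.0% and 8.70%, in 8.00% of the bright probes and in 6.93% of all probes. The same letters on the other strand, TTTATT, were in 0 raised and 1 lowered probe, and in 3.19% of the bright probes. A reading frame without a stop codon on the printed strand was open in 45 of 54 raised probes (83.3%), 42 of 46 lowered probes (91.3%) 82.3% of the bright probes and 83.4% of all probes. With so few members these shares are a description.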

How the data were processed

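The 14 arrays were read with Agilent Feature Extraction (version 9.5.1.1, per the file headers). The deposited scanner intensity values (mean signal and median background of each spot) carry no normalization. The authors' deposited log10 ratios, Cy5 over Cy3, hold that software's own background and dye correction, per the file headers, and their sign was turned to sample over reference. Members were chosen on these log10 ratios, divided by 0.30103 and centred on the array median. The deposited value table is also on a log10 scale, matched the turned ratios probe by probe (r of 0.99927 to 0.99997 over 14654 probes), has column medians of 2.24 to 2.32 and holds 75 members. The constant added to each of its probes stays unknown.

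For levels and tests, signals were corrected with normexp (offset 50) and loess in limma 3.58.1 under R 4.3.3, with control spots at weight 0 and outlier spots (1 to 24 per array) left out. Tests were run on the 31053 probes whose Cy3 signal cleared background well on both arrays of some group. All 14 arrays entered 1 fit of 7 group means (7 residual and 5.33 prior degrees of freedom), two-sided, Benjamini-Hochberg over all tested probes, threshold 0.05. On simulated data for LY294002 against control (31053 probes) the fit called 98.5% of 67 probes given a log2 change of 1. It called 68.7% of 67 given 0.5, with 4 false calls. These values were 95.5%, 73.1% and 13 for RA and 98.5%, 61.2% and 11 for day 4. They were 97.0%, 68.7% and 7 for day 7 and 97.0%, 64.2% and 8 between the colonies. The simulated errors were independent between arrays, so these rates may not hold if the 2 arrays of a group are technical repeats.

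The members, the rules and the lists were chosen with earlier results of these data known. Named probes are the 10 raised and 10 lowered members with the largest smaller difference, the 3 largest rises and falls among called members of each tested comparison that were well above background on its 4 arrays without overlap of the groups, the overlapping probes and those next to the limit. Gene lists and cell type markers could not be applied, as probes carry no gene name. Sequences were compared with exact matching in Python 3.11.15. Alternatives covered the scaling, filters, single channels, blocks, left-out arrays, other numbers of members and the rule on loess values. Replicate numbers were checked for pairing. Between passage 10 and standard day 3 the number is the slide (r = 0.254 for same-numbered deviations). In the tested comparisons r was -0.0865 to 0.113, and the numbers pair nothing.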

Additional observations from a re-analysis of the deposited data

Results flagged for a closer look

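In 7 members the change against control day 3 went in opposite directions in the 2 kinds of colony, each past limma's threshold, and the direct difference between the colonies passed it too. All 7 were well above background on the 6 arrays concerned. How many of all tested probes did the same was not counted, so the number is not read as particular to the members. Of all tested probes 59.9% passed on day 4, 52.9% on day 7 and 52.8% between the colonies, counting both directions. The raised probe Z00010489-1 had a log2 change of -2.00 on day 4 and 1.26 on day 7, a difference of 3.26 (limma adjusted p = 1.24e-11). The lowered probe Z00075126-1 had -1.73 and 0.33, and the overlapping lowered pair Z00075380-1 and Z00053992-1 had -0.39 and 1.11, and -0.29 and 0.93. The raised probe Z00054591-1 had -0.59 and 0.85, and the lowered probe Z00075208-1 had -0.80 and 0.74. The lowered probe Z00004700-1 went the other way, with 0.75 on day 4 and -1.02 on day 7 (limma adjusted p = 2.16e-08 for the difference). Line, slide and day differ together between the colonies and cannot be told apart.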

How the results depend on the processing

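The share of members called stayed within 1.5 times its value in every alternative run except the stricter threshold. The members called were 70.0% for RA, 77.0% for LY294002, 64.0% for day 4, 76.0% for day 7 and 59.0% for day 7 against day 4. Of all tested probes 38.3%, 52.6%, 59.9%, 52.9% and 52.8% were called. Of the probes bright enough for the rule 44.4%, 61.8%, 68.5%, 60.3% and 62.5% were called. The members' shares on day 4 and between the colonies thus lay below those of the bright probes. With a 2-fold change also required, the members called were 26%, 39%, 25%, 30% and 29%, beside 3.6%, 7.16%, 9.64%, 7.3% and 6.97% of all tested probes. Leaving out 1 array of the groups compared gave 61.0% to 64.0%, 67.0% to 76.0%, 58% to 60%, 64.0% to 73.0% and 50.0% to 64.0%. With a replicate block, although the numbers pair nothing in these comparisons, the shares were 69.0%, 76.0%, 65.0%, 76.0% and 59.0%. All 412 values of the 30 named changes under these alternatives kept their direction and passed the threshold. These changes were named as the largest among members already called, which favours such an outcome, so it says nothing of the smaller changes.

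The counts of raised members called on day 4 and between the colonies moved with the processing, while the larger side stayed the same under the 3 other log ratios. On day 4 the larger side reversed with other sets of probes. Of the 32 raised members well above background on all arrays 13 rose and 8 fell. Of the 26 raised ones among the top 50 probes by the rule 10 rose and 7 fell. In the authors' values, 8 raised members rose and 21 fell on day 4, with median centring 3 rose and 12 fell, and day 7 against day 4 gave 24 higher and 6 lower, and 14 and 3. For LY294002, the lowered members that fell numbered 38 with Agilent's log ratios, 33 with median centring, 38 in Cy3 alone and 23 of the 31 that the authors' table holds, although that table and median centring moved the median of all probes up by 0.23 and 0.12. Among the top 200 probes by the rule 78 of 97 lowered ones fell. The rule applied to loess values shared 59 of its 100 probes with the members, and 46 of its 58 lowered probes fell. Slide as a random block (correlation -0.0338) did not separate slide from group where a group was alone on its slide.

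The raised members' median at passage 10 was 1.13 on the scale of the rule, 0.70 with loess, 0.61 with median centring and 0.60 in Cy3 alone, and reversed to -0.0166 in Cy5 alone, which holds the reference. The lowered members' median was -1.18, and -0.87, -0.88, -1.15 (authors' table), -0.86 and -0.0077 in Cy5 alone. The offset pulls dim signals toward no change by construction. Low signals over background limit the raised members most.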
